A study of Mus musculus with 6 samples.

Results

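The genes described here encode proteins that start transcription, carry RNA polymerase II through a gene, splice the RNA, control its decay and export it. They were taken by the start of their names (Polr2, Med, Taf, Gtf2, Gtf3, Ints, Supt, Nelf, Hexim, Larp, Sf3, Srsf, Srrm, Hnrnp, Snrp, Snrnp, Prpf, Rbm, Cpsf, Cstf, Pcf11, Xrn, Exosc, Dis3, Upf, Smg, Cnot, Zfp36, Celf, Mbnl, Pabp, Luc7, Thoc, Nup and Nxf) from a table of nascent transcription in mouse blood progenitors. The rule gave 22 of the table's 2744 genes, each with 1 transcript row. By role, 5 act in initiation (Med13l, Med15, Taf5l, Gtf2i and Gtf2ird2), 1 in elongation as an Integrator subunit (Ints12), 3 in the spliceosome or as SR proteins (Snrpe, Snrpn and Srsf1) and 6 as splicing regulators (Hnrnpa2b1, Hnrnpa3, Hnrnpk, Hnrnpl, Rbm47 and Mbnl2). A further 6 act in RNA decay or bind poly(A) tails (Cnot6l, Exosc10, Smg1, Smg6, Larp4b and Zfp36l1), 1 belongs to the nuclear pore (Nup107), and cleavage and polyadenylation factors had 0 members.

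The measurements were made by PRO-seq, in which engaged polymerases in isolated nuclei add biotin-labelled nucleotides to the RNA they are making, and that RNA is captured and sequenced. Bone marrow progenitors, labelled cKIT+, came from female C57/BL6 mice of genotype Mllt3 flox/flox Rosa26Cre+ and received either MLLT3 WT (WT) or MLLT3 K63E K67E (double mutant, DM), with 3 libraries in each group. MLLT3 is a chromatin reader whose YEATS domain carries the substitutions in DM. Cells of both groups were sorted and grown for 8 days in methylcellulose with a mix of cytokines and 200 nM 4-hydroxytamoxifen, which was meant to delete the endogenous gene, and run-on lasted 3 min. The promoter that drove the transduced MLLT3 and the marker used for sorting are not given in the sources used here. All 6 libraries are labelled batch 1, the age of the mice is not given in the sources used here, and nothing says whether replicates came from separate mice or cultures, so p-values measure only the spread between these samples. The question addressed is where engaged polymerase on these genes differs between DM and WT cells.

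Genes are transcribed by RNA polymerase II in stages. Mediator and the general factors place the polymerase at the promoter, where it commonly pauses a short distance downstream before release into the gene body, and Integrator can cleave the RNA of polymerases near the start. Spliceosomal particles with SR and hnRNP proteins then process the RNA while it is made, and the exosome, the deadenylases of the CCR4-NOT complex and nonsense-mediated decay later limit its life. Read counts had been deposited for a head window of 330 bp, which begins 30 bp upstream of each transcript's 5′ end, and for the body, which is the rest of the transcript with its introns. Counts were divided by each library's total and given per 1000000 reads (RPM), and levels were compared between genes only per kilobase (RPKM).

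The table holds only transcripts that had passed the authors' test of body counts at an adjusted p under 0.05 (the largest was 0.0498 in the authors' deposited table). Every gene in it had therefore been chosen by its body difference in these same libraries, and body values below are a description. Membership of the table is itself a count: of 352 protein-coding RefSeq symbols that match the rule, 22 (6.25%) were in the table, against 2622 of 21900 protein-coding symbols (12.0%). No Polr2 gene (0 of 13), Supt gene (0 of 8), Nelf gene (0 of 4) or Hexim gene (0 of 2) was in it, nor any Sf3 (0 of 9) or Prpf gene (0 of 13). Mediator contributed 2 of 30, Integrator 1 of 15, the hnRNPs 4 of 21 and Rbm genes 1 of 38. Genes outside the table are not analysed here, and the level at which they were transcribed is unknown.

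Library totals ran from 15112853 reads (WT replicate 2) to 22981603, and the 22 genes together had 30487 to 51559 body reads and 9229 to 11394 head reads per library. The body of Mllt3, the manipulated gene, stood at 84.4 ± 9.62 RPM in WT and 60.1 ± 2.50 in DM (mean ± SD, n = 3 each), and counts over the whole gene do not separate the added cDNA from the endogenous copy. WT replicates were further apart than DM replicates: for the genes here other than Snrpn, the median coefficient of variation of body RPM was 10.9% in WT and 2.90% in DM. Other lineage genes differed between the groups. Of 13 stem and progenitor markers, 8 were in the table, with a summed body level of 2806 to 3584 RPM in WT libraries and 1725 to 1795 in DM. Of the 8, Procr was higher in DM (0.933 ± 0.236 and 2.27 ± 0.237 RPM). The 4 of 12 erythroid and megakaryocyte markers held 197 to 223 RPM in WT and 107 to 125 in DM, and the 3 of 9 mast and basophil markers 1188 to 2204 and 943 to 1018. The 9 of 15 myeloid markers held 305 to 393 RPM in WT and 733 to 856 in DM, although 1 of them, Ctsg, was lower (47.0 ± 2.72 and 26.2 ± 4.94 RPM). Of B-cell markers, 0 of 6 were in the table, and Gzmb was the only one of 8 T and NK markers. Kit, whose product gives the cells their label, was at 1266 ± 259 RPM in WT and 657 ± 8.53 in DM. The part of these shifts in the results below was not tested, and fewer cells of a type and less transcription per cell cannot be told apart.

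Promoter sequences are shown for 6 genes on which the results turn: Rbm47, with the largest increase; Ints12 and Med15, with the lowest unadjusted p in the test of head against body; Zfp36l1, with the highest level per kilobase in DM; Cnot6l, whose head passed the threshold; and Hnrnpa3, the hnRNP with the largest decrease. Each is the RefSeq sequence of build GRCm38.p6 from 120 bases before to 30 after the annotated start, written 5′ to 3′ on the gene's strand. Capitals mark every complete match, on either strand, to 1 of 10 motifs: the TATA letters TATAAA, the CCAAT box, the AP-1 letters TGANTCA, the cyclic AMP element (CRE) TGACGTCA, the ETS letters CCGGAAG, the YY1 letters CAAGATGG, the E-box CACGTG, the GC box GGGCGG, and the consensus motifs of NRF1 and NF-kB.
Rbm47 (chr5:66150949-66151098, minus strand): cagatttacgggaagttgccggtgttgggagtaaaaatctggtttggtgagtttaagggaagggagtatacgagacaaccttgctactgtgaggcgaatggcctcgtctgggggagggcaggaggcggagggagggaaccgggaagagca
Ints12 (chr3:133091735-133091884, plus strand): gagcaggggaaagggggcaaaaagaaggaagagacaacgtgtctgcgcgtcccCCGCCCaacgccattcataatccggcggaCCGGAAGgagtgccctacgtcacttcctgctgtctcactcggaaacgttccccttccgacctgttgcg
Med15 (chr16:17722918-17723067, minus strand): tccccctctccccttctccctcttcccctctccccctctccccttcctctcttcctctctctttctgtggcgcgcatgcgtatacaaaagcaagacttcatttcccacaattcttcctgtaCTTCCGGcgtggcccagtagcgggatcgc
Zfp36l1 (chr12:80112984-80113133, minus strand): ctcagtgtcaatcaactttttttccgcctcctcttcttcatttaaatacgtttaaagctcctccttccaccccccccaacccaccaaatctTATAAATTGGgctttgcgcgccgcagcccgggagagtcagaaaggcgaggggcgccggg
Cnot6l (chr5:96161961-96162110, minus strand): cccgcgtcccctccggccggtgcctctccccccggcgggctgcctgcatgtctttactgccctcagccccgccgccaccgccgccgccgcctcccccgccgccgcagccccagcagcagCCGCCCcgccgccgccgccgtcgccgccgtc
Hnrnpa3 (chr2:75659139-75659288, plus strand): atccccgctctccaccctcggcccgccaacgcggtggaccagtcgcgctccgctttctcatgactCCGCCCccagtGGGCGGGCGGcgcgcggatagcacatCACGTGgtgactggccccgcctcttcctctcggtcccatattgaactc
Of these, Zfp36l1 alone has a TATAAA match, which begins 29 bases upstream of the start and overlaps a CCAAT match on the other strand. The ETS letters begin 38 bases upstream of the start of Ints12 and at base 2 of the Med15 transcript, and the Rbm47 window holds none of the 10 motifs. The annotated start of Rbm47 lies 100 bp downstream of the 5′ end used in the table, while the starts of the other 5 lie within 20 bp of it.

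For 20 of the 22 genes a RefSeq start lay within 100 bp of the table's 5′ end, and their 300-base entries (250 before the start, 50 after) were searched; Srsf1 and Hnrnpk, 345 and 399 bp off, were left out. The ETS letters were in 7 of the 20 entries (35%): Ints12, Med15, Larp4b, Gtf2ird2, Nup107, Snrpe and Taf5l. The share was 13.3% of the 1723 entries matched in the same way to genes of the table and 8.86% of all 32851 entries. The first 3 of these genes had a higher body level in DM and the other 4 a lower one, so the letters occurred in both directions. The GC box was in 65% of the 20, near the 72.5% of the table's entries, and CCAAT in 35%, near 36.6%. TATAAA was in 1 of 20 (5%), against 6.33% of the table's entries, the NRF1 letters also in 1, against 1.51%, and the E-box in 2 (10%), against 11.3%. TGANTCA was in 1, against 5.75%. The CRE, YY1 and NF-kB letters were in none of the 20, against 2.55%, 1.39% and 0.638% of the table's entries.

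Log2 changes below are DM over WT. In the gene bodies, 8 of the 22 genes were higher in DM and 14 lower. The higher ones were Rbm47, Ints12, Med15, Mbnl2, Zfp36l1, Larp4b, Smg1 and Med13l. All 4 hnRNP genes, all 3 spliceosome and SR genes, both TFII-I family genes, Taf5l, Nup107, Cnot6l, Exosc10 and Smg6 were lower. All 22 passed the threshold (edgeR adjusted p under 0.05), as did 99.5% of the table's genes, 57.4% as higher and 42.1% as lower, and nothing can be read from the members' count. The median log2 fold change of the 22 was -0.29, against 0.40 over the table, and 17 of them lay below the table's median. Differences were small: the median size was 0.39 on the log2 scale against 0.69 over the table, and 20 of 22 were under 0.6, against 41.1% of the table's genes. Body RPM did not overlap between the groups for 21 of the 22, all but Snrpn, against 95% of the table (56.9% higher, 38.2% lower). The summed body level of the 22 was 2127 ± 113 RPM in WT and 2199 ± 38.9 in DM (mean ± SD, n = 3 each).

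**Figure D1:**
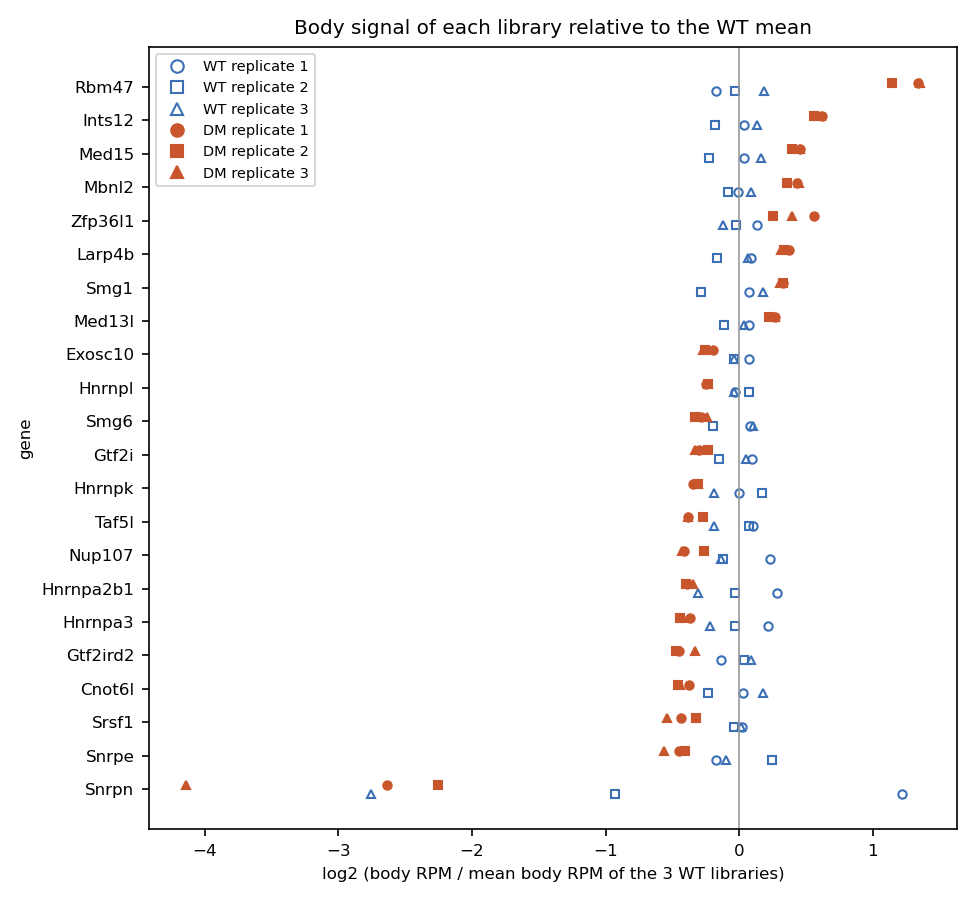
Body signal of each gene in each of the 6 libraries, as the log2 of body RPM over the mean of the 3 WT libraries. Open blue symbols are WT and filled orange symbols DM; the 3 DM libraries lie on one side of all 3 WT libraries for every gene but Snrpn, where WT replicate 1 stands apart on the right.

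How many of the small increases passed depended on the scaling of libraries. TMM scaling, which centres on the table's own genes, lowered the table's median body log2 fold change by 0.21 and left 4 genes higher past the threshold (Rbm47, Ints12, Mbnl2 and Med15) and 14 lower, 18 in all, beside 41.9%, 42.5% and 84.5% of the table. Median-of-ratios scaling lowered it by 0.33, left 2 genes higher past the threshold (30.9% of the table) and placed Med13l and Smg1 just below 0, at -0.080 and -0.0096. The authors' own size factors gave 8 higher and 14 lower, as library totals did. With 1 library left out, 10 to 22 genes passed. There were 10 without DM replicate 1 and 10 without DM replicate 3, where 75.6% and 74.7% of the table passed. There were 15 without DM replicate 2 (88.4% of the table) and 17 without WT replicate 1 (94% of the table).

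**Figure D2:**
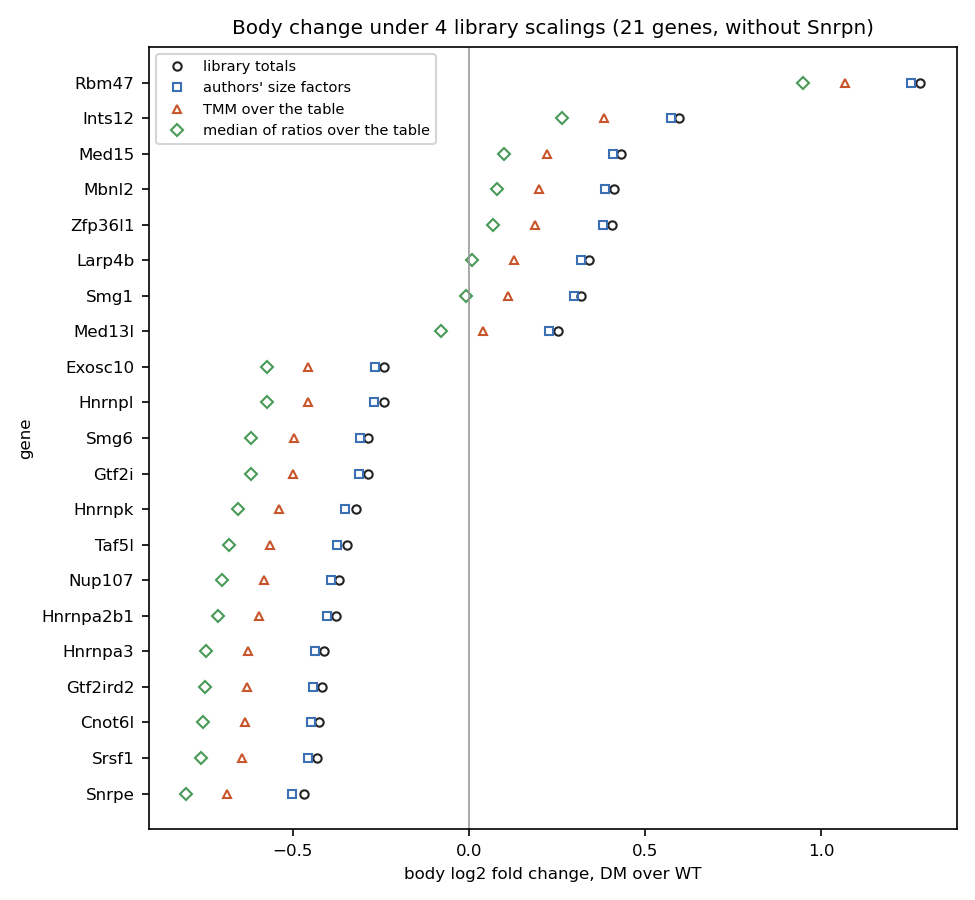
Body log2 fold change, DM over WT, of 21 genes (Snrpn, which is far to the left, is not drawn) under 4 ways of scaling the libraries. Circles are library totals, squares the authors' size factors, triangles TMM and diamonds the median of ratios; the 13 lower genes stay below 0 under each, while Med13l and Smg1 cross 0 with the median of ratios.

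Mediator bridges activators and the polymerase. Med15, a tail subunit that many activators contact, had 85.6, 71.4 and 93.7 body RPM in WT replicates 1 to 3, against 114, 110 and 114 in DM, all 3 DM libraries above WT. This was a log2 change of 0.43 (SE 0.11) from 83.6 ± 11.3 to 113 ± 2.56 RPM (SD, n = 3 each). Med13l, part of the kinase module that binds Mediator reversibly, had 265, 234 and 258 RPM in WT against 304, 295 and 303 in DM, a log2 change of 0.25 that was 0.04 under TMM (edgeR adjusted p 0.607). The other initiation genes were lower. Gtf2ird2 (chromosome 5, 134184019 to 134224355) and Gtf2i (chromosome 5, 134237834 to 134314760), which encode TFII-I family factors and neighbour each other, had log2 changes of -0.42 (SE 0.11) and -0.29 (SE 0.10). Gtf2ird2 had 23.7, 26.7 and 27.7 body RPM in WT against 19.0, 18.8 and 20.7 in DM. Gtf2i had 133, 112 and 129 in WT against 102, 106 and 99.3 in DM, so that for both genes every DM library was below every WT library. Ncf1 shares 4303 bp with Gtf2ird2. Taf5l, a subunit of the SAGA coactivator, went from 42.8 ± 4.62 to 33.6 ± 1.55 RPM (log2 change -0.35, SE 0.11).

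Ints12 (ENSMUSG00000028016.9; chromosome 3, 133091840 to 133110988) encodes a small subunit of Integrator, the complex that cleaves small nuclear RNA and nascent transcripts near promoters. Its body held 24.6, 21.1 and 26.2 RPM in WT against 36.8, 35.4 and 36.7 in DM. The increase from 24.0 ± 2.61 to 36.3 ± 0.802 RPM (SD, n = 3 each) was a log2 change of 0.60 (SE 0.11), and 0.38 under TMM (edgeR adjusted p 0.00458). It was the second largest increase of the 22 genes. The head of Ints12 held 16.0, 23.8 and 17.7 RPM in WT against 16.5, 19.4 and 17.8 in DM, with overlapping groups and a log2 change of -0.10 (edgeR adjusted p 0.825). Ints12 shares 200 bp with Gstcd. If these bases lie in the head window, head reads of this pair cannot be told apart where counting ignores strand.

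Among core splicing genes, Snrpe encodes a protein of the Sm ring that all major spliceosomal particles share, and Srsf1 an SR protein that recruits the spliceosome to exons. Srsf1 had 43.8, 42.1 and 43.7 body RPM in WT against 32.0, 34.5 and 29.7 in DM, a log2 change of -0.43 (SE 0.097). Snrpe had 19.9, 26.6 and 20.98 RPM in WT against 16.5, 17.0 and 15.2 in DM, a log2 change of -0.47 (SE 0.14). Both genes were lower in every DM library than in any WT library.

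Snrpn (ENSMUSG00000102252.5; chromosome 7, 59982495 to 60005111), an imprinted gene for a tissue-specific Sm protein, behaved differently from the rest. Its body counts were 189, 28 and 12 reads in WT against 13, 15 and 4 in DM, so WT replicate 1 held 82.5% of the WT reads, and the groups overlapped. The log2 change of -2.80 (SE 0.93, edgeR adjusted p 0.0177) became -1.12 (edgeR adjusted p 0.131) without WT replicate 1, and was -2.43 (edgeR adjusted p 0.0582) without DM replicate 3. In the authors' deposited table it was -2.82 by fitted body counts and -1.13 by merged body signal. The head had 35, 3 and 2 reads in WT against 2, 4 and 0 in DM, too few for a test. Snrpn lies within Snurf and Snhg14, whose reads cannot be separated from it.

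The hnRNPs bind nascent RNA and influence splice-site choice. Their 4 genes were lower together, with a summed body level of 613.5 ± 67.3 RPM in WT and 489.5 ± 4.22 in DM (mean ± SD, n = 3 each) and a median log2 fold change of -0.35 (0.40 over the table). Hnrnpa3 (chromosome 2, 75659261 to 75669407) had 94.4, 79.7 and 70.0 RPM in WT against 63.0, 59.9 and 60.8 in DM, a log2 change of -0.41 (SE 0.12). Hnrnpa2b1, its close relative, had 267, 215 and 177 RPM in WT against 168, 167 and 173 in DM, a log2 change of -0.38 (SE 0.14). Without WT replicate 1 the change of Hnrnpa2b1 was -0.21 (edgeR adjusted p 0.0911), and the call was lost. The WT libraries of these A/B-type genes spread widely, and the lowest WT library of Hnrnpa2b1 was just above the highest DM library. Hnrnpk, which binds C-rich RNA, had 121, 136 and 106 RPM in WT against 94.9, 97.2 and 97.5 in DM, a log2 change of -0.32 (SE 0.11). Hnrnpl, which binds CA repeats and controls Cd45 splicing in lymphocytes, had 188, 202 and 187 RPM in WT against 162, 163 and 163 in DM, a log2 change of -0.24 (SE 0.088). Groups did not overlap for any of the 4. Rmi1 shares 269 bp with Hnrnpk. hnRNP and Sm protein genes have processed copies elsewhere in the genome, and how reads that map to several places were handled is not given in the sources used here.

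Rbm47 and Mbnl2, the other splicing regulators, were higher. Rbm47 (ENSMUSG00000070780.11; chromosome 5, 66016549 to 66151078), an RNA-binding protein known as a cofactor of APOBEC1 in RNA editing, had 66.9, 73.8 and 85.8 body RPM in WT against 191, 167 and 193 in DM. The mean went from 75.5 ± 9.56 to 184 ± 14.3 RPM (SD, n = 3 each), a log2 change of 1.28 (SE 0.12), and 1.07 under TMM (edgeR adjusted p 2.24e-04). It was the only gene of the 22 other than Snrpn whose body differed by more than 0.6 on the log2 scale. Mbnl2, a muscleblind protein that controls splicing and RNA localization, had 116, 111 and 125 RPM in WT against 158, 150 and 160 in DM. Its log2 change was 0.41 (SE 0.093), and 0.20 under TMM (edgeR adjusted p 0.0281). Mbnl2 shares 44576 bp with the noncoding gene Gm52122 and 26539 bp with Gm26679. Body reads of these genes cannot be told apart where counting ignores strand.

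Decay genes were divided. Of the nonsense-mediated decay pair, the kinase gene Smg1 was higher and the endonuclease gene Smg6 lower. Smg1 had 114, 89.5 and 123 body RPM in WT against 137, 137 and 135 in DM, a log2 change of 0.32 (SE 0.13) that was 0.11 under TMM (edgeR adjusted p 0.310) and 0.20 without WT replicate 2. Smg6, the longest gene of the set with a body of 238 kb, had 128, 106 and 130 RPM in WT against 99.3, 96.3 and 103 in DM, a log2 change of -0.29 (SE 0.11). Smg6 shares 1711 bp with Srr and 3072 bp with Hic1, and whether these bases reach its head window was not examined. Exosc10, an exonuclease of the nuclear exosome, went from 56.9 ± 2.61 to 48.2 ± 1.33 RPM (log2 change -0.24, SE 0.091). For each of these 3 genes the groups did not overlap.

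Zfp36l1 binds AU-rich elements and recruits the CCR4-NOT deadenylase complex, in which Cnot6l is a catalytic subunit. The pair differed in opposite directions. Zfp36l1 had 108, 96.5 and 90.2 body RPM in WT against 144, 117 and 129 in DM, a log2 change of 0.41 (SE 0.12) that was 0.19 under TMM (edgeR adjusted p 0.131). Cnot6l (ENSMUSG00000034724.18; chromosome 5, 96070333 to 96161990) had 148, 123 and 164 RPM in WT against 112, 106 and 107 in DM, a log2 change of -0.43 (SE 0.12). Larp4b, which binds mRNAs and poly(A)-binding protein, went from 131 ± 12.6 to 166 ± 3.37 RPM, a log2 change of 0.34 (SE 0.10) and 0.13 under TMM (edgeR adjusted p 0.153). Nup107, a scaffold protein of the nuclear pore's Y complex, had 42.6, 33.3 and 33.0 RPM in WT against 27.3, 30.2 and 27.0 in DM, a log2 change of -0.37 (SE 0.13) that was -0.24 without WT replicate 1 (edgeR adjusted p 0.0549).

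Per kilobase of body, the order of levels changed at the top. Hnrnpa2b1 had the highest level in WT at 25.3 ± 5.23 RPKM, followed by Zfp36l1 at 19.8 ± 1.77 (SD, n = 3 each), and these ranges overlapped. In DM, Zfp36l1 was at 26.2 ± 2.78 RPKM and Hnrnpa2b1 at 19.5 ± 0.390, without overlap. Below them came Hnrnpl (17.3 ± 0.766 in WT, 14.7 ± 0.0793 in DM), Hnrnpk (10.9 ± 1.35 and 8.72 ± 0.131), Hnrnpa3 (8.26 ± 1.25 and 6.22 ± 0.157) and Srsf1 (7.53 ± 0.161 and 5.59 ± 0.419). WT levels of Hnrnpa3 and Srsf1 differed by less than the spread of the Hnrnpa3 libraries. The median of the 22 in WT was 1.61 RPKM, against 0.93 over the table, and Snrpn was lowest at 0.16. Genes higher in DM had bodies of 4.96 to 204 kb, with a median of 96.2 kb and 6 of 8 above 50 kb, against a median of 39.5 kb for the table's higher genes. Genes lower in DM had a median of 23.0 kb with 3 of 14 above 50 kb, against 27.9 kb for the table's lower genes. The table's shares above 50 kb were not counted, and a link of length with direction was not tested.

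The head window reports polymerase near the 5′ end used in the table, and shares no bases with the body. That end lay 345 bp downstream of the nearest RefSeq start for Srsf1 and 399 bp upstream for Hnrnpk. The head windows of Srsf1 and Hnrnpk therefore do not hold that start. Of the 21 genes with enough head reads, Cnot6l was the only one past the threshold, and it was lower; among all genes tested 20.3% of 2579 genes passed, 9.62% as higher and 10.7% as lower. An unadjusted p under 0.05 was reached by 5 genes (Cnot6l, Gtf2i, Hnrnpa3, Smg6 and Rbm47), against 37.2% of the table. The head of Cnot6l held 13.6, 19.8 and 15.3 RPM in WT against 8.27, 8.90 and 10.2 in DM, with no overlap. Cnot6l shares 196 bp with the annotated gene Gm52799. If these bases lie in the head window, head reads of the pair cannot be told apart where counting ignores strand. The decrease from 16.2 ± 3.18 to 9.13 ± 0.987 RPM (SD, n = 3 each) was a log2 change of -0.83 (SE 0.26, edgeR adjusted p 0.0348). The call was lost when WT replicate 3 was left out (edgeR adjusted p 0.0797), and also without DM replicate 1, 2 or 3 (0.183, 0.138 and 0.132) and with the authors' size factors (0.0558), under which 0 heads of the 21 passed beside 16.9% of the table (7.64% higher, 9.27% lower). Few heads passed in those runs over the table, 11.9% without WT replicate 3 and 0.532%, 7.82% and 4.16% without DM replicates 1, 2 and 3. The log2 change of Cnot6l there was -0.87 without WT replicate 3 and -0.76, -0.81 and -0.92 without DM replicates 1, 2 and 3.

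Among the other heads, Rbm47 had the highest fitted change. It held 1.13, 4.37 and 2.36 RPM in WT against 4.55, 4.60 and 4.90 in DM, a log2 change of 0.87 (SE 0.38, edgeR adjusted p 0.105) from 26 to 104 reads per library. With TMM it passed at 1.02 (edgeR adjusted p 0.011), and so did 4 lower genes, namely Cnot6l, Gtf2i, Hnrnpa3 and Smg6, beside 38.2% of the table (19.2% higher, 18.9% lower). Gtf2i held 4.74, 6.48 and 5.33 head RPM in WT against 2.85, 3.81 and 3.40 in DM (log2 change -0.72, SE 0.26, edgeR adjusted p 0.0656). Hnrnpa3 held 22.2, 26.9 and 18.9 in WT against 13.7, 14.5 and 15.2 in DM (-0.65, SE 0.25, edgeR adjusted p 0.0711). Smg6 held 13.2, 17.3 and 15.7 in WT against 8.80, 12.1 and 10.5 in DM (-0.56, SE 0.26, edgeR adjusted p 0.129). These 3 genes had no overlap between groups, and their heads did not pass in the edgeR fit with library totals. With DESeq2 the head of Hnrnpa3 passed (adjusted p 0.0447), where 24% of the table did, and with replicate number as a block in edgeR that of Gtf2i (adjusted p 0.0405), where 30.9% did. Head RPM did not overlap between groups for 10 genes, 2 higher (Rbm47 and Mbnl2) and 8 lower (Srsf1, Cnot6l, Hnrnpa3, Hnrnpk, Gtf2i, Smg6, Hnrnpl and Med15), against 41% of the table, 17.7% higher and 23.3% lower.

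Most fitted head changes were below 0. Of 21 genes, 19 lay below 0, all but Rbm47 and Mbnl2, against 58.6% of the table, with a median of -0.29 against -0.11. All 13 tested genes with a lower body were among them, and so were 6 of the 8 with a higher body: Ints12, Med15, Zfp36l1, Larp4b, Smg1 and Med13l. Over the table, 32.1% of genes with a higher body had a head change below 0. The share among genes with a lower body was not counted. WT replicate 2 bore on this: without it 14 of 21 lay below 0 (43.9% over the table), and the median was -0.13 (0.10 over the table). Of the 8 genes with a higher body, 2 then remained below 0, against 11.5% of the table's genes with a higher body. The heads that passed without it were those of Cnot6l, Hnrnpa3 and Rbm47, 3 of 21 against 36% of the table. The highest head level in both groups was that of Zfp36l1, at 129 ± 21.5 RPM in WT and 122 ± 7.92 in DM (mean ± SD, n = 3 each), where groups overlapped (edgeR adjusted p 0.827).

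**Figure D3:**
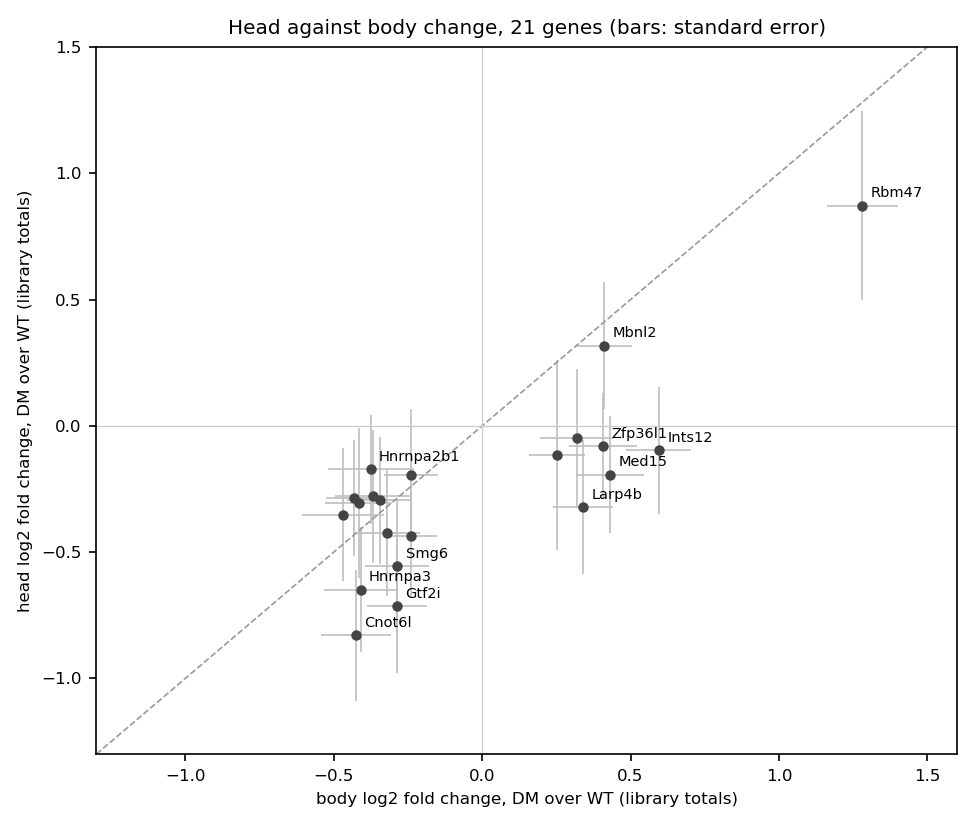
Head against body log2 fold change, DM over WT, for the 21 genes with a head test, scaled by library totals. Bars are standard errors and the dashed line marks equal change; 6 genes lie to the right of 0 and below it, and Rbm47 is at the upper right.

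Genes were also sorted here by whether the merged head and merged body log2 ratios in the authors' deposited table were above or below 0. A lower head with a higher body was found for 5 of the 22 (22.7%), namely Ints12, Med15, Zfp36l1, Larp4b and Med13l, against 15.5% of all genes. Both were higher for 3 (13.6%, against 41.5%) and both lower for 14 (63.6%, against 41.2%). In the authors' deposited table the merged head log2 ratio of Med13l was -0.0056 and that of Smg1 0.0010, so these 2 were sorted differently at almost the same value. Ranked among 13408 rows in that table, the heads of the 22 genes lay between percentiles 0.403 (Snrpn) and 97.0 (Rbm47), with a median of 35.0, and 16 lay below percentile 50. A head ratio of no change lay at percentile 67.3.

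The test of head against body asks whether the 2 windows changed by different factors, and any factor that a library's 2 windows share cancels in it. None of 21 genes passed (edgeR adjusted p), against 0.0776% of the table (2 genes). An unadjusted p under 0.05 was reached by 2 of the 21, Ints12 and Med15, against 15.3% of the table, and DESeq2 called 0. Ints12 had 65.1, 113 and 67.7 head reads for every 100 body reads in WT against 44.9, 54.8 and 48.6 in DM, with no overlap. The log2 change of its ratio was -0.68 (SE 0.27, p 0.0268 in edgeR's test, adjusted p 0.275). Med15 had 27.2, 36.6 and 24.2 head reads for every 100 body reads in WT against 18.3, 20.3 and 17.3 in DM, a log2 change of -0.63 (SE 0.26, p 0.0285 in edgeR's test, adjusted p 0.275). The head groups overlapped for Ints12, while for Med15 the 3 DM heads lay just below the WT heads. Zfp36l1 had 105, 159 and 135 in WT against 88.1, 96.7 and 98.3 in DM (-0.47, SE 0.25, edgeR adjusted p 0.366), and Larp4b a change of -0.63 (SE 0.30, edgeR adjusted p 0.328).

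Head reads per 100 body reads did not overlap between groups for 5 genes, lower in DM for Zfp36l1, Med15 and Ints12 and higher for Srsf1 and Hnrnpa2b1, against 25.3% of the table (4.08% higher, 21.2% lower). Srsf1 had 56.4, 60.4 and 59.3 in WT against 61.0, 65.3 and 68.4 in DM, and Hnrnpa2b1 29.2, 32.6 and 35.0 in WT against 37.4, 37.6 and 35.1 in DM. The Srsf1 head window begins downstream of its nearest RefSeq start. The fitted ratio was below 0 for 14 of 21 genes, against 73.1% of the table, and for 7 of 21 with separate TMM factors for head and body (45.4% of the table). It was below 0 for all 8 genes with a higher body, from -0.68 to -0.09 with a median of -0.41, and for 6 of 13 with a lower body, from -0.43 to 0.19. The table's genes showed the same division, with 88.4% of 1521 higher genes below 0 (median -0.44) and 51.2% of 1056 lower genes. The body count enters both the split and the ratio, so this division is a description. WT replicate 2 had the highest head reads per 100 body reads of all 6 libraries for 16 of 21 genes and for 68.4% of the table. The median over the genes was 19.2, 30.2 and 22.4 in WT replicates 1 to 3, against 19.4, 20.6 and 21.01 in DM. Of the 8 genes with a higher body, 5 stayed below 0 with separate TMM factors (65.1% over the table), where the median over the 21 genes was 0.078. Without WT replicate 2 the fitted ratio was below 0 for 5 of the 8 (76.9% over the table), and the median over the 21 genes was 0.014 in place of -0.22.

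**Figure D4:**
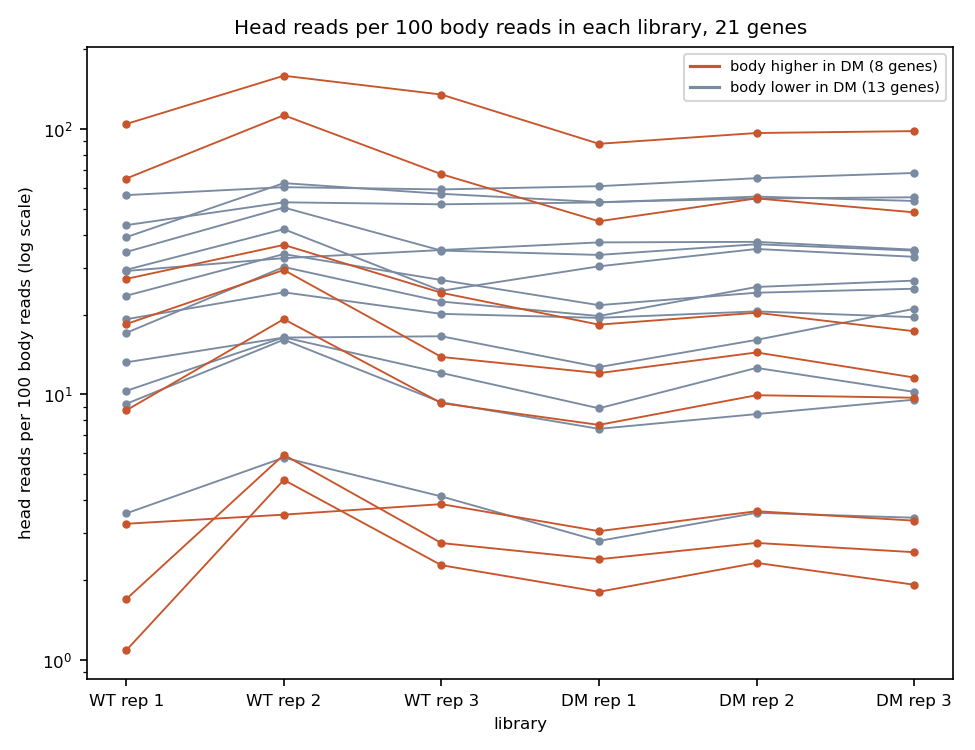
Head reads per 100 body reads, on a log scale, of 21 genes in the 6 libraries; lines join the values of 1 gene and carry no order between replicates. Orange lines are the 8 genes with a higher body in DM and grey lines the 13 with a lower body; WT replicate 2 is the highest library for 16 of the 21 genes.

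Mean head density exceeded mean body density for every gene in WT. Per kilobase, the head to body ratio in WT ran from 7.11 ± 0.903 in Hnrnpk to 93.3 ± 22.7 in Smg6 (SD, n = 3 each), with a median of 17.7 over the genes against 19.3 over the table. The head window of Hnrnpk, as given above, does not hold its nearest RefSeq start. Med15 stood at 63.5 ± 14.0 in WT and 40.4 ± 3.32 in DM, Larp4b at 50.0 ± 19.5 and 30.8 ± 3.68, and Ints12 at 46.8 ± 15.3 and 28.2 ± 2.85.

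Genes of the same processes with other names were counted from a list of 136, of which 19 were in the table. In the body 10 were higher and 9 lower past the threshold, against 99.5% of the table. With TMM 5 were higher and 9 lower, against 84.5% of the table (41.9% higher, 42.5% lower). In the head 0 passed (edgeR adjusted p), against 20.3% of the table, with 2 at an unadjusted p under 0.05, against 37.2%. With TMM 1 head was higher and 1 lower, against 38.2%. In the test of head against body 0 of the 19 passed (edgeR adjusted p), against 0.0776% of the table. An unadjusted p under 0.05 was reached by 6, against 15.3%. Head reads per 100 body reads did not overlap between groups for 7 genes lower in DM and 2 higher, against 21.2% and 4.08%. The largest differences were these. Btg2, which links deadenylases to mRNAs, had a body log2 fold change of 0.93, the elongation factor gene Ell2 0.76, the RNase gene Zc3h12a 0.73, the SR protein kinase gene Srpk2 0.54 and Aff1, a super elongation complex scaffold, 0.46. The deadenylase adaptor gene Tob2 stood at -0.46, the export adaptor gene Alyref at -0.46, the splicing repressor gene Ptbp1 at -0.39 and the RNA polymerase I gene Polr1a at -0.42.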

How the data were processed

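PRO-seq of 6 libraries was analysed from 1 table. Raw counts of head and body windows, library totals and window sizes were deposited by the authors, and how totals were counted is not given in the sources used here. The log2 values and folds of merged signal, the log2 fold change, p-values and adjusted p-values of body counts, the mean normalized signal and the percent ranks were deposited by the authors. The submitters' processing notes name cutadapt, Trimmomatic, Bowtie 1.1.2, MACS2, bedtools 2.28 and the builds mm10 and dm3, with no role given. Whether dm3 reads served as a spike-in or enter the library totals is not given in the sources used here, so levels are relative to the deposited totals; use of strand and treatment of multiply mapped reads are not given in the sources used here. Table coordinates are as deposited.

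A single row per gene was kept, that of highest mean body count, leaving out 278 of 3022 rows. Count tests used the quasi-likelihood method of edgeR 4.0.16 (with limma 3.58.1 under R 4.3.3). Genes had to pass filterByExpr at a minimum count of 10 and a minimum total of 15. Group was the sole covariate, and Benjamini-Hochberg adjustment ran over all genes of the table, with a threshold of 0.05. Libraries were scaled by the deposited totals, because scalings such as TMM take most genes as unchanged and the table holds only called ones. The head to body ratio was tested as the interaction of region and group with library as a block. Alternatives were TMM, median of ratios, the authors' size factors (recovered from their mean values), DESeq2 1.42.0, other filters, a replicate block and leaving out each library.

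Same-numbered libraries deviated together at r of -0.087, -0.179 and 0.373 in bodies. These values show no steady link between same-numbered libraries, but so few cannot exclude that the numbers pair the samples. Replicate pairs differed by more than sampling noise (chi-square per degree of freedom 2.68 to 40.5). Simulated 2-fold changes in 200 genes were recovered for 95% in bodies (2739 genes), 82% in heads (2599) and 38.5% in ratios (2603). The median size of body change among the genes described here was smaller, 0.39 on the log2 scale, and recovery of such changes was not tested. In WT, head RPM varied more than body RPM (median coefficient of variation 19.6% and 10.9%, without Snrpn). Simulated heads were drawn with the spread estimated from body counts, and whether it matched that of heads was not tested. Head and ratio rates may therefore be too high. Members and lists were chosen with earlier results of these data known. Named with values were the highest and lowest body change and the 2 smallest head p-values of each role, the 6 highest levels per kilobase, and every elongation gene; the remaining members were added to account for all. Promoters are RefSeq's, matched by symbol, chromosome, strand and start.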

Additional observations from a re-analysis of the deposited data

How the results depend on the processing

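Counts of genes past the threshold moved with scaling, threshold and single libraries; where no cause is given, the cause was not tested. For bodies, 22 genes (8 higher, 14 lower) became 4 higher with TMM and 2 with the median of ratios. They became 7 (4 higher, 3 lower) at an adjusted p under 0.01 and 3 (2 higher, 1 lower) with a fold of at least 1.5. The 1 lower gene at that fold was Snrpn, whose change rested on WT replicate 1. The table's shares at these cut-offs were not computed, so nothing can be read from these counts. With 1 library left out, the total was 10 to 22, of which 4 to 8 were higher and 4 to 14 lower. The table's share in those runs went from 74.7% (without DM replicate 3) to 97.4% (without WT replicate 2). Blocking on replicate number, which is not known to pair the samples, called 19 (7 higher, 12 lower), where 96.8% of the table passed (56.7% higher, 40.2% lower). For heads, 1 gene (0 higher, 1 lower) became 5 with TMM and 5 with the median of ratios (1 higher, 4 lower each), 0 with the authors' size factors and 0 at an adjusted p under 0.01. DESeq2 gave 2, both lower, the replicate block 3 (1 higher, 2 lower), and leaving out 1 library 0 to 4 (0 to 1 higher, 0 to 4 lower). Over the table, 24% of heads passed with DESeq2 and 30.9% with the replicate block. With 1 library left out, the table's share ran from 0.532% (without DM replicate 1) to 36% (without WT replicate 2). Nothing about the members can therefore be read from that range. The ratio gave 0 genes in each alternative run, DESeq2 included.

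Single genes past 0 were few in bodies, Med13l at -0.080 and Smg1 at -0.0096 with the median of ratios. The head of Med13l was at 0.050 with TMM, 0.051 with the median of ratios and 0.045 with the replicate block, and that of Smg1 at 0.044 and 0.042 with the first pair. With separate TMM factors for head and body, ratios passed 0 for Hnrnpa3 (0.072), Hnrnpk (0.22), Hnrnpl (0.14), Mbnl2 (0.20), Med13l (0.078), Rbm47 (0.012) and Smg6 (0.032). Leaving out 1 library moved some values across 0, mostly without WT replicate 2: head changes ran from -0.37 to 0.019 for Exosc10, -0.21 to 0.086 for Ints12, -0.48 to 0.47 for Med13l, -0.20 to 0.21 for Smg1 and -0.17 to 0.062 for Zfp36l1. Ratio changes ran from -0.097 to 0.28 for Exosc10, -0.10 to 0.27 for Gtf2ird2, -0.15 to 0.014 for Hnrnpk, -0.26 to 0.017 for Hnrnpl, -0.72 to 0.30 for Med13l, -0.12 to 0.29 for Nup107, -0.67 to 0.18 for Rbm47, -0.56 to 0.010 for Smg1 and -0.14 to 0.20 for Taf5l. Snrpn had the fewest body reads, 4 to 189 per library, and too few head reads for a test.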
